A study of Mus musculus with 2 samples.

Results

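Scavenger receptors are surface and vesicle proteins through which macrophages bind and take up modified lipoproteins, dying cells and microbes. The 9 considered were Cd36, Scarb1, Scarb2, Msr1, Marco, Colec12, Stab1, Olr1 and Cd68, which were looked up by symbol among the 20330 gene identifiers of the deposited expression table. Of these, 8 had a value, and 7 reached an FPKM (fragments per kilobase of transcript, scaled to the number of mapped fragments) of at least 1 in at least 1 library. Marco was listed at 0 in both libraries. Cd68 was not found among these identifiers, so it had no value to compare and was read at its promoter only.

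The receptors were read in adipose tissue macrophages (ATM) sorted with F4/80 and CD11b antibodies from the visceral fat of C57BL/6 mice after 12 weeks on a high-fat diet. WT mice were hMRP8cre-;Hif-1αfl/fl;ApoE-/- and KO mice were hMRP8cre+;Hif-1αfl/fl;ApoE-/-, so both groups carried floxed Hif-1α alleles and were labelled ApoE-/-, ApoE being a ligand that carries lipoproteins to their receptors. In KO mice the promoter of human MRP8, a calcium-binding protein of neutrophils and monocytes, drives Cre, so that Hif-1α is removed in cells that use or used this promoter, and the share of sorted ATM with a deletion was not measured here. There was 1 library per genotype, and whether it came from 1 animal or from a pool is not stated, so no difference below has a replicate check and none was tested.

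Class B receptors have a pair of membrane spans and bind lipoproteins or fatty acids. Class A receptors carry a collagen-like stalk and bind oxidised or acetylated LDL and microbial surfaces. In fat, macrophages use such receptors to take up lipid and the remains of dying adipocytes, and what is taken up is broken down in lysosomes, stored in droplets or passed on to HDL.

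The promoters of 3 genes are shown, because these genes carry the results below: Cd36 had the highest level, Scarb2 the largest difference toward KO and Olr1 the largest toward WT. Each runs 5′ to 3′ from 250 bases before to 50 bases after the gene start and is RefSeq sequence of GRCm38.p6 on the minus strand. The windows are chr5:17835847-17836146 for Cd36, chr5:92505608-92505907 for Scarb2 and chr6:129507116-129507415 for Olr1. Capitals mark matches, on either strand, to AGGTCA (the core bound by nuclear receptors such as PPARγ and LXR), GAGGAA (the PU.1 core) or TGACNNNGC (the NRF2 element).
Cd36: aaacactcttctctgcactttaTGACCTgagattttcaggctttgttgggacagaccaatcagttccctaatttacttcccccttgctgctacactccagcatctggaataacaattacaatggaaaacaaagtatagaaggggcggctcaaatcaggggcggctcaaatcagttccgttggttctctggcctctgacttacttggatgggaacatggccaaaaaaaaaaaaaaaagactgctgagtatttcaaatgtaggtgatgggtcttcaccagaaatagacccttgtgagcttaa
Scarb2: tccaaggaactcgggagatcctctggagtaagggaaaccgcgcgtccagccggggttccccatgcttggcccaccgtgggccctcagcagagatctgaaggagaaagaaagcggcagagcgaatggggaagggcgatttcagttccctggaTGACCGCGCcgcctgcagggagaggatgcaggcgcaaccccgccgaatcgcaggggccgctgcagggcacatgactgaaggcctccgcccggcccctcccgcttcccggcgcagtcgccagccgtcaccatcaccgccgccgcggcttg
Olr1: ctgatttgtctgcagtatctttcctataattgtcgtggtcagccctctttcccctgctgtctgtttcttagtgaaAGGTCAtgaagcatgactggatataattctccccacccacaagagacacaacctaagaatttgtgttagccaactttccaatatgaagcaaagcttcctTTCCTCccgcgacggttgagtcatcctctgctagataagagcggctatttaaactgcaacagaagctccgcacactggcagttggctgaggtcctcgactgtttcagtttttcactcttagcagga

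Promoter sequences were matched for 6 of the 9 receptors and were missing for Msr1, Scarb1 and Colec12. The HIF-1 core, ACGTG or GCGTG on either strand, was in 0 of the 5 promoters that belonged to a receptor with a value, and 43.8% of all 32851 promoters of this length held it. The nuclear receptor core AGGTCA, found in 16.3% of all promoters, began at -228 relative to the start of Cd36 and at -175 in Olr1. The PU.1 core, in 28.3% of all promoters, began at -76 in Olr1, at -30 in Stab1 and at -146 in Marco, and the Cd68 promoter held it 2 times. The NRF2 element, in 12.4% of all promoters, began at -99 in Scarb2. The Scarb2 window held 28 CG dinucleotides and was 67.3% G and C, against 3 and 43% for Cd36, 7 and 46% for Olr1 and medians of 7 and 52.7% over all promoters. These matches are letters in a single window per gene, and any other start of the same gene was not read. No binding was measured.

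The sorted cells carried macrophage transcripts in both libraries. All 14 macrophage markers were above 0 in each, with a summed FPKM of 20909 in WT and 20010 in KO. On the log2(FPKM + 1) scale 0 of the 14 passed a 3-fold difference, where 27.3% of all genes kept did. Among genes at 100 to 1000 FPKM the share was 1.99%. Of the 14, 6 were higher and 8 lower in KO. The widest differences were in Aif1, at 205 FPKM in WT and 79.3 in KO, Mertk, at 38.0 and 88.1, and Fcgr1, at 49.3 and 21.9. Hif1a was at 30.4 FPKM in WT against 21.0 in KO, a value for the whole gene that includes any transcript left after Cre had cut. Apoe was listed at 94.3 FPKM in WT and 117 in KO, although both genotypes are labelled ApoE-/-, and a value for the whole gene cannot show whether these transcripts are intact. Several lists of markers of other cells had lower sums, and some moved with genotype. Platelet and red cell markers summed to 1466 FPKM in WT and 2123 in KO, of which Pf4 held 1448 and 2115. The other 5 went the other way, from 18.5 in WT to 7.29 in KO as a sum. Dendritic cell markers summed to 165 and 169. The sum of 10 neutrophil markers was 143 FPKM in WT against 499 in KO, with Elane, Camp, Ltf and Mmp8 at 0 in both. Most of both sums was S100a8, the mouse gene for MRP8, at 73.3 and 182 FPKM, and S100a9, at 63.4 and 301. The sums therefore rest mainly on these genes, and MRP8 is also made by monocytes. Of the 6 neutrophil markers kept, 6 were higher in KO and 3 passed 3-fold upward, where 13.6% of all genes kept did. The 3 were S100a9, from 63.4 to 301 FPKM, and Ngp and Mpo, listed at 0 in WT and at 2.61 and 2.29 in KO. Ngp, Mpo and Retnlg, at 0.385 in WT and 2.46 in KO, were kept through KO alone and had to be higher. The share over all genes kept also includes genes kept through 1 library alone. With 6 markers and no test, no more is read from these counts. The sum of 9 fibroblast markers was 55.4 and 99.3, of which Dcn held 35.0 and 62.3, with none at 0 in both. Without Dcn the sum was 20.3 and 37.0. Of the 8 fibroblast markers kept, 7 were higher and 1 lower in KO. Past 3-fold were 2 upward and 1 downward, against 13.6% and 13.7% of all genes kept. The adipocyte sum was 24.8 and 28.8, with Adipoq, Plin1 and Pck1 at 0 in both. Of the 5 adipocyte markers kept, 3 were higher and 2 lower in KO. Among them Cfd went from a listed 0 to 7.11 and Cidec from 5.83 to a listed 0. The part of these cells in the receptor values was not tested. In such bulk RNA, fewer cells of a type and less RNA per cell cannot be told apart.

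Olr1 was the one receptor past a 3-fold difference between WT and KO ATM, and Scarb2 came next, with 1.93 times its WT level in KO. A difference is given as the change in log2(FPKM + 1), KO minus WT, and counts as past the threshold at 3-fold on that scale. The study also used 3-fold for its gene lists, without stating a scale. Of the 7 receptors kept, 3 were higher in KO (Cd36, Scarb2 and Stab1) and 4 were lower (Msr1, Scarb1, Colec12 and Olr1), but 0 passed 3-fold upward and 1, Olr1, passed it downward. Over all 10297 genes kept, 13.6% passed 3-fold upward and 13.7% downward, so a count of 1 in 7 is near the background. The median change of the 7 receptors was -0.23, against 0.03 over all genes, whose changes had an SD of 1.55. Without Olr1 the median of the other 6 was -0.00035. A median rests on ranks, so leaving out Scarb1 or Msr1 instead would move it as far, and the shift is not particular to Olr1.

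**Figure D1:**
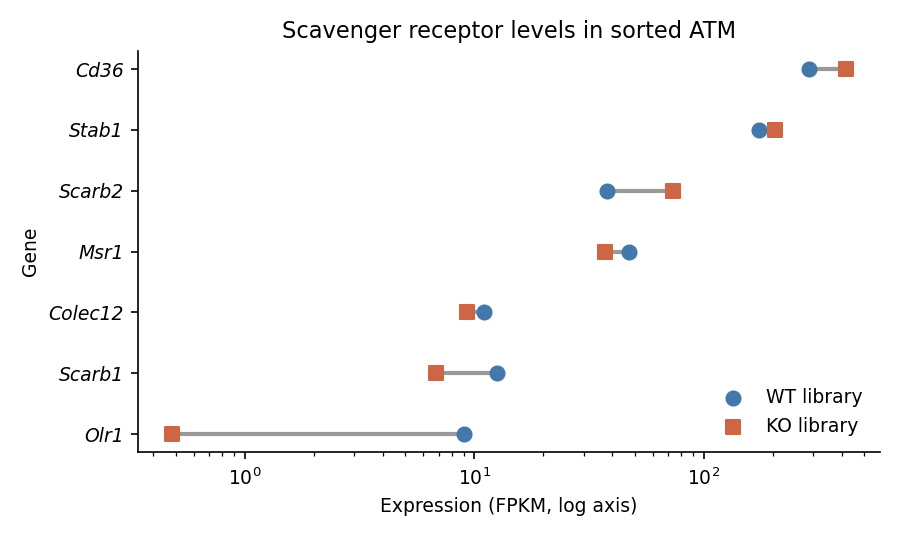
FPKM of each receptor in the WT and the KO library, on a log axis, with 1 point per library joined by a line. The gap is widest for Olr1, which reaches 0.483 in KO, and Marco, listed at 0 in both, is not drawn.

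Cd36, a class B receptor that takes up oxidised LDL and long-chain fatty acids, was the most abundant receptor in both libraries. Its level was 288 FPKM in WT against 418 in KO, a 1.45-fold higher value in KO and a change of 0.54. It ranked 299th by FPKM among all genes in WT and 216th in KO. About 5726 fragments in WT and 10600 in KO, both estimated from the smallest FPKM step with the length of the longest coding transcript, lay behind these values. With the shortest the numbers would be 1183 and 2189.

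The study's qRT-PCR primers for Cd36 show which piece of the transcript its own assay reads. They are given 5′ to 3′, in lower case throughout, and match GRCm38 at chr5:17828826-17828843 for the forward and chr5:17814732-17814751 for the reverse primer.
Cd36 forward: gtcctggctgtgtttgga
Cd36 reverse: gctcaaagatggctccattg
Both lie inside coding exons, the forward primer in exon 3 or 4 and the reverse in exon 5 or 6 according to the transcript. Together they bound a product of 319 nt in 6 of the 6 annotated coding transcripts of Cd36, and each matched transcripts of 1 gene only. The FPKM value, by comparison, covers the whole gene.

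Scarb2 encodes LIMP-2, a class B protein of the lysosomal membrane. It was at 38.1 FPKM in WT against 73.6 in KO, 1.93-fold higher in KO, which at a change of 0.93 was the largest value toward KO among the receptors. Genes of similar mean level, 50 to 100 FPKM, had changes from -0.94 to 0.78 between their 10th and 90th percentiles, so Scarb2 lay above that range, and 4.95% of these 667 genes passed 3-fold.

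Scarb1, or SR-BI, is the class B receptor for HDL and takes up cholesteryl esters selectively. Its level was 12.6 FPKM in WT against 6.85 in KO, 1.84-fold higher in WT. The change of -0.80 lay inside the range of genes at 5 to 10 FPKM, -2.56 to 2.47, and the values rested on an estimated 186 and 129 fragments with the longest coding transcript, or 26 and 18 with the shortest. The 3 class B receptors thus did not go one way. Their summed FPKM was 338 in WT and 498 in KO, and Scarb2 over Scarb1 was 3.02 in WT and 10.8 in KO.

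The class A receptors were all at equal or lower values in KO. Msr1, or SR-A, which takes up acetylated and oxidised LDL and bacteria, was at 47.5 FPKM in WT against 37.0 in KO, a change of -0.35. Colec12, a collectin with a collagen stalk that binds microbes and oxidised LDL, was at 11.1 in WT and 9.29 in KO, a change of -0.23. Both lay well inside the spread of genes at their level, which ran from -1.19 to 1.21 for Msr1 and from -1.62 to 1.60 for Colec12. Marco, which binds bacteria and particles and is typical of alveolar and splenic marginal zone macrophages, was listed at 0 in both. The class A sum was 58.6 FPKM in WT against 46.3 in KO, 10.1% and 6.18% of all receptor FPKM.

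Stab1, or stabilin-1, a receptor of tissue macrophages and sinusoidal endothelium for acetylated LDL, SPARC and dying cells, was the second most abundant. It stood at 174 FPKM in WT against 205 in KO, a change of 0.23, inside the range of -0.65 to 0.60 for genes at 100 to 1000 FPKM. Cd36, in the same bin, was inside it as well. Of the receptors, Stab1 was the one whose annotated exons overlapped those of another gene, Nt5dc2, on the opposite strand, with 112 nt as the longest shared stretch. Nt5dc2 was at 116 FPKM in WT against 79.6 in KO, and the library protocol describes no step that marks strand, so reads of the shared stretch cannot be told apart.

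Olr1, or LOX-1, is a C-type lectin-like receptor for oxidised LDL, known from endothelium and also made by activated macrophages. It fell from 9.002 FPKM in WT to 0.483 in KO, an 18.7-fold ratio of FPKM and a change of -2.75. It was kept only because of its WT value, and a gene kept that way had to differ. With the longest of its 5 coding transcripts, 3572 nt, an estimated 188 fragments lay behind the WT value and 13 behind the KO value, and with the shortest, 350 nt, 18 and 1. Genes at its mean level, 2 to 5 FPKM, differed widely between these libraries: 49.1% of the 1947 such genes passed 3-fold, 23.8% downward, and their changes ran from -2.67 to 2.73. Olr1 lay just below that range. The sum of 12 endothelial markers was 263 FPKM in WT against 470 in KO, of which Lyve1 held 240 and 453, and the other 11 summed to 22.9 and 16.5, with Egfl7, Emcn, Cldn5 and Gpihbp1 at 0 in both. Of the 7 endothelial markers kept, 4 were higher and 3 lower in KO, with 0 past 3-fold upward and 2 downward, where 13.7% of all genes kept passed downward. These were Tie1, from 4.12 FPKM to a listed 0, and Stab2, from 4.19 to 0.362, each kept through its WT value alone. The part of endothelial cells in the Olr1 value was not tested.

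**Figure D2:**
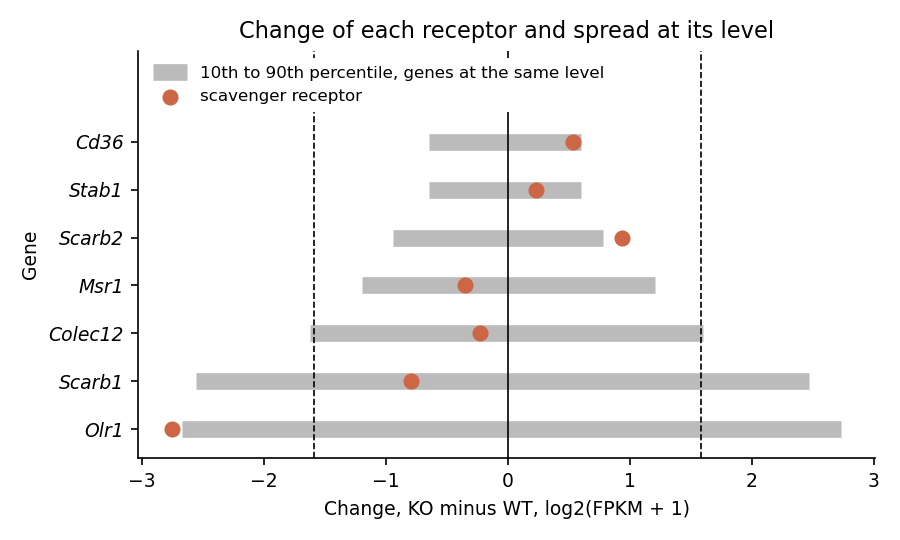
Change in log2(FPKM + 1), KO minus WT, of each receptor (points) beside the 10th to 90th percentile range of genes at the same mean FPKM (bars), with dashed lines at 3-fold. Scarb2, at 0.93, lies above its range and Olr1, at -2.75, below its range, and the other 5 lie inside theirs.

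The receptors of a macrophage add up, so their composition was also set out on the FPKM scale, which is per transcript length. All receptors together summed to 580 FPKM in WT against 750 in KO, which was 0.0991% and 0.132% of the library's summed FPKM. Most of that gain was Cd36: without it the sums were 293 and 332. Cd36 alone made up 49.6% of receptor FPKM in WT and 55.7% in KO, and with Stab1 it made up 79.6% and 83.0%. The order of levels in WT was Cd36, Stab1, Msr1, Scarb2, Scarb1, Colec12 and Olr1. In KO, Scarb2 stood above Msr1 and Colec12 above Scarb1, and the other places were the same. With 1 library per genotype, whether such neighbours differ beyond their spread cannot be said. Cd36 over Msr1 was 6.05 in WT and 11.3 in KO, and Msr1 over Scarb2 was 1.25 and 0.503.

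**Figure D3:**
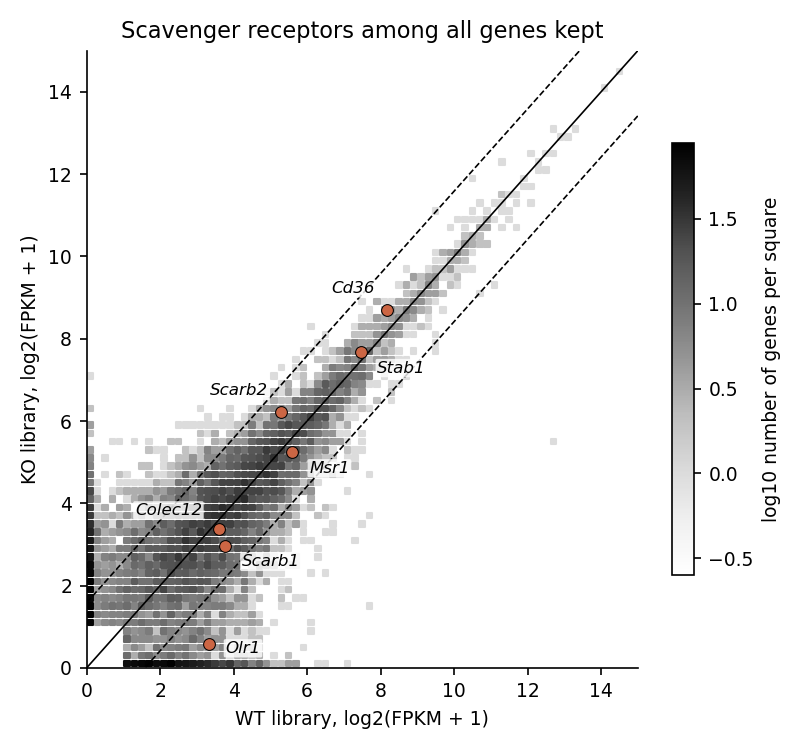
Level in KO against level in WT for all 10297 genes kept, on log2(FPKM + 1) axes, with grey squares shaded by the number of genes, receptors as points, a line of equality and dashed lines at 3-fold. Cd36 and Stab1 sit among the more abundant genes close to equality, and Olr1 lies far below it.

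A wider set of uptake receptors was read beside them. Of 24 further scavenger, lipoprotein and pattern receptors, 18 were kept, 10 with higher and 8 with lower values in KO, at a median change of 0.06. None rose past 3-fold and 3 fell past it: Cd5l, a secreted lipid-binding protein of tissue macrophages, from 13.4 FPKM to a listed 0, Ssc5d from 5.97 to 0.185, and Stab2, the endothelial stabilin, from 4.19 to 0.362. Each of the 3 was kept through its WT value alone, and 3 of 18 is near the 13.7% of all genes kept that passed downward. The most abundant of the list by mean FPKM were Cd14, the LPS co-receptor, at 1060 FPKM in WT against 1095 in KO, Mrc1, the mannose receptor CD206, at 332 and 427, and Trem2, a lipid-sensing receptor, at 228 and 155.

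Genes that handle the cargo after uptake include lysosomal enzymes, lipid carriers and exporters. All 17 were kept, 4 higher and 13 lower in KO, where 48.7% of all genes kept were lower, at a median change of -0.26, with 0 past 3-fold upward and 1 downward. That gene was Fabp5, a fatty acid chaperone, which fell from 130 FPKM to 39.0, a change of -1.71. Over all genes kept 13.7% passed downward, but that share falls with level. It was 3.9% at 50 to 100 FPKM, the mean level of Fabp5, and 1.38% at 100 to 1000. The Fabp5 change lay below the 10th percentile of -0.94 for genes at 50 to 100 FPKM. The most abundant by mean FPKM were lysosomal proteases: Ctsb at 1632 FPKM in WT against 1718 in KO, Ctsd at 1347 and 808, and Lgmn at 734 and 698. Lpl, Abcg1 and Plin2 were picked from the list after their values had been seen. Lpl, which frees fatty acids from lipoproteins, was at 457 and 219, Abcg1, a cholesterol exporter, at 46.5 and 20.7, and the droplet coat gene Plin2 at 673 and 707.

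CD36 acts with partner proteins on the membrane, and these went both ways. Of 13 such genes, all kept, 8 were higher and 5 lower in KO, at a median change of 0.02. The 3 most abundant were Fcer1g, the common Fc receptor chain, at 2927 FPKM in WT against 2965 in KO, the tetraspanin Cd81 at 350 and 356, and Tlr2 at 293 and 295. One passed 3-fold upward and none downward: Zdhhc4, a palmitoyl transferase that acts on CD36, stood at a listed 0 in the WT library but at 12.9 FPKM in KO, and so was kept through its KO value alone. That is 1 of 13, against 13.6% upward over all genes kept. Picked after their values had been seen, Tlr6, a partner of TLR2, had a change of 1.46, with 2.28 FPKM in WT and 8.02 in KO, the kinase Fyn one of -1.23 and the tetraspanin Cd9 one of -1.14. On FPKM alone Tlr6 was 3.52-fold higher in KO, and it fell short of 3-fold only on the log2(FPKM + 1) scale.

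Transcription factors that act on scavenger receptor genes divided evenly. Of 14, all kept, 7 were higher and 7 lower in KO, at a median change of -0.04. Past 3-fold 0 rose and 2 fell, where 13.7% of all genes kept fell. That share depends on level, with 6.43% at 20 to 50 FPKM and 16.2% at 5 to 10. Both that fell were lipid-sensing nuclear receptors that can induce Cd36: Pparg, encoding PPARγ, from 36.4 FPKM to 7.78, a change of -2.09, and Nr1h3, encoding LXRα, from 12.9 to 2.97, a change of -1.81. Pparg lay below the 10th percentile of -1.19 for genes at 20 to 50 FPKM. Nr1h3 lay inside the range of -2.56 to 2.47 for genes at 5 to 10. Among the most abundant factors were Spi1, encoding PU.1, at 367 FPKM in WT against 301 in KO, and Nfe2l2, encoding NRF2, at 179 and 223.

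**Figure D4:**
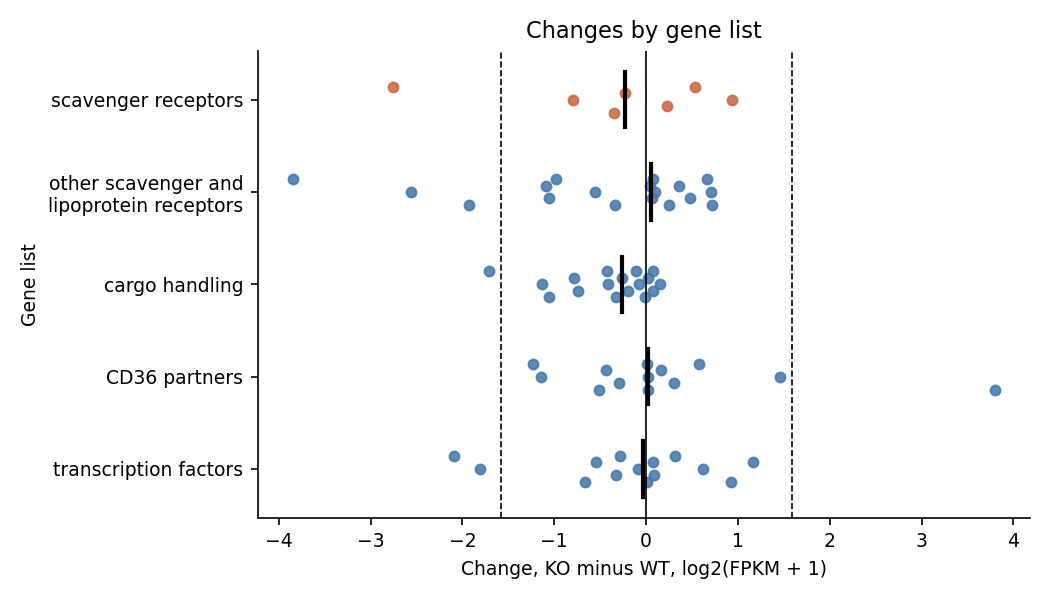
Change in log2(FPKM + 1), KO minus WT, of each kept gene in the scavenger receptor list and in the lists of other receptors, cargo handling, CD36 partners and transcription factors, 1 point per gene, with the list's median as a black bar and dashed lines at 3-fold. Medians lie between -0.26 and 0.06, and the points past 3-fold include Olr1, Fabp5, Pparg, Nr1h3 and Zdhhc4.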

How the data were processed

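Poly(A) RNA from sorted ATM of 1 WT and 1 KO mouse group was sequenced, and the authors deposited 1 table of FPKM values per gene. The submitters' processing notes name CASAVA 1.8.2, TopHat2 2.0.9, Cufflinks 2.2.1 and mm9. The annotation and any filters are not given in the sources used here. The column for the mutant was taken as KO, since no other library was not WT. FPKM are normalized values, so no count model was used.

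Rows that repeated another in full (401) were dropped, and 18 further rows of an identifier already present were summed. Symbols came from GENCODE M21 (98.5% of identifiers). Genes that reached an FPKM of 1 in either library were compared as log2(FPKM + 1), which understates the change of low genes. Depth was estimated from the smallest recurring FPKM x kb step (0.171 in WT, 0.134 in KO), at about 5860000 and 7470000 fragments. Fragment numbers are estimates and cover counting error only, after 18 PCR cycles.

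The receptors and lists were chosen with earlier results of these data known. Named were all receptors and, from each of the 4 further gene lists, the 3 highest by mean FPKM and those past 3-fold whose FPKM was 1 or more in each library. Other single genes were named after their values had been seen. Marker lists are given as sums and counts, for some lists with the genes that make up most of a sum or a small count. Some genes of the lists, 1 of which the rule names, are not reported here. Alternatives changed the pseudocount, filter, fold, scaling and repeated rows. The calculation was tested on simulated data. Python 3.11.15, numpy 2.4.6 and pandas 2.3.3 were used.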

Additional observations from a re-analysis of the deposited data

How the results depend on the processing

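Of 115 values recomputed under other settings, 111 stayed within 1.5-fold or their own allowance and 4 moved. As called values 0 went to the other side, which only Olr1 could have done. Of 54 recomputed changes of single receptors 0 took the opposite sign, but these settings could hardly turn one. A pseudocount or filter cannot turn a sign, and keeping the largest row left every receptor change as it was. The scalings shifted log2 values by at most 0.044, against a smallest receptor change of 0.23 in size. The count of receptors past 3-fold downward, 1 in the report, was 0 with an FPKM of at least 1 required in both libraries and 0 with a mean FPKM of at least 5, since Olr1 is then left out by construction, and the median change of the other 6 was -0.00035. The share of all genes past 3-fold was 27.3% as reported, 11.6% and 18.1% under those filters, and 45.6% past 2-fold, where the receptor counts stayed at 0 upward and 1 downward. The Olr1 change was -3.97 with a pseudocount of 0.1 and -4.19 with 0.01. The signs of 2 list medians near 0 did not hold: that of the transcription factors, -0.04, was 0.004 with the libraries scaled to the same sum, and that of the other receptors, 0.06, was 0 with no filter. The same-sum scaling factor was 0.044 on the log2 scale. Estimated depth limits Olr1 most, at 13 fragments in KO, or 1 if its shortest transcript was the one expressed. No paired analysis was possible because there was a single library for WT and a single one for KO.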

Other observations

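A few genes beside the receptors, chosen after their values had been seen, are given without a test. Cd163, the haemoglobin scavenger receptor of tissue macrophages, was at 130 FPKM in WT against 214 in KO, and Lyve1, a hyaluronan receptor of lymphatic endothelium and of some tissue macrophages, at 240 and 453. Cxcl16, a chemokine that also binds oxidised LDL, was at 94.3 and 150. Lower in KO were Clec7a, the β-glucan receptor, at 95.2 and 44.1, and the tetraspanin Cd9, at 42.9 and 18.9.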
